A study of Mus musculus with 58 samples.

Results

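The 10 genes described here are respiratory chain genes of the mouse mitochondrial genome: mt-Nd1, mt-Nd2, mt-Nd3, mt-Nd4, mt-Nd4l, mt-Nd5, mt-Nd6, mt-Cytb, mt-Co1 and mt-Atp6. They were taken by symbol from a table of 18088 genes, which holds 15 mitochondrially encoded genes. All 10 passed the filter on low values, a mean normalised count of at least 10. The study sequenced RNA from the prefrontal cortex of C57BL/6J mice on postnatal day 25. Mice were labelled heterozygous for Kmt5b (HT here) or wild-type (WT here), which encodes an enzyme that methylates histone H4. Pups were exposed through the mother's milk from postnatal day 3 to 24 to vehicle, to fluoxetine (a serotonin reuptake inhibitor) or to lithium (a mood stabiliser). 5 of the 6 groups had 10 libraries, 5 from females and 5 from males, and the WT lithium group had 8, with 4 of each sex. The labels gave no litter or dam, so animals of 1 litter may have been counted as separate, and the p-values measure only the spread between these samples. In RNA from bulk tissue, fewer cells of a type and less RNA per cell cannot be told apart.

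Mitochondria carry a small circular genome that is transcribed from both strands into long precursors. These are cut at the transfer RNAs into messengers that mitochondrial ribosomes translate. The encoded proteins form the core of respiratory complexes I, III, IV and V, and most other subunits are encoded in the nucleus and imported. Neurons depend on this chain for the ATP that drives ion pumping and synaptic transmission.

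Between 23.5 M and 38.6 M reads per library were recovered from the deposited values of 54 libraries (M, 1e6 reads). Kmt5b, read first to check the genotype, averaged 1734 ± 98.3 normalised counts over the 30 HT libraries (SD) and 1654 ± 137 over the 28 WT libraries. It was thus not lower in HT (0.07 on the log2 scale, SE 0.0251, limma adjusted p = 0.186), and HT means the libraries with that label wherever a direction is given. In that comparison over the 3 treatments 0 members passed by limma, against 0.468% of all genes, with 0 members at an unadjusted p under 0.05 and 0 by edgeR and DESeq2. All 7 excitatory neuron markers were present, with a summed normalised count of 130518 to 228493 per library. A pair of WT lithium libraries, females 3 and 4, stood apart in mt-Atp6 (14357 and 11070, the lowest of all 58). They also had the most recovered reads, 38.6 M and 37.7 M. A WT lithium female also held the lowest value of all 58 for mt-Nd1 (129820), mt-Nd2 (81821), mt-Nd4 (153932), mt-Nd5 (94390) and mt-Cytb (198935). Whether depth had a part was not tested. For the members, the main limma comparisons that use WT lithium are given with and without this pair. Levels, shares of counts, nuclear genes and correlations are given with the pair in. In HT against WT over the 3 treatments 9 of 10 estimates were below 0 with the pair and 10 of 10 without it. Without it 0 members passed by limma, where 106 of 16669 genes did. At an unadjusted p under 0.05 there were then 2 members and 2034 of 16669 genes. The pair was picked by its mt-Atp6 values, so the change of mt-Atp6 without it follows from that choice.

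The position of the genes decides which reads can be told apart, so the relevant sequences are given first (GENCODE M21 transcripts, GRCm38). The genes lie on chromosome M, for example mt-Nd1 at chrM:2751-3707, mt-Nd2 at chrM:3914-4951, mt-Nd3 at chrM:9459-9806, mt-Co1 at chrM:5328-6872, mt-Atp6 at chrM:7927-8607 and mt-Cytb at chrM:14145-15288. All members are on the plus strand except mt-Nd6 (chrM:13552-14070, minus strand). mt-Nd4l (chrM:9877-10173) ends inside mt-Nd4 (chrM:10167-11544), and the 7 bases that belong to both are in capitals:
end of mt-Nd4l: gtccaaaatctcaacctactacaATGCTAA
start of mt-Nd4: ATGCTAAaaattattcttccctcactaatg
On opposite strands, mt-Nd5 (chrM:11742-13565) and mt-Nd6 meet at their last 14 bases, in capitals:
end of mt-Nd5: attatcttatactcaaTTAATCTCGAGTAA
end of mt-Nd6: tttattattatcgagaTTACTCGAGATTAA
The library kit keeps the strand, but whether counting used it is not given in the sources used here. mt-Atp6 shares 43 bases with mt-Atp8 and 1 with mt-Co3 on its own strand, so a read there could belong to either gene. If strand was not used, reads of mt-Nd6 and of the RNA opposite to it cannot be told apart.

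Several members also have a near-identical copy in the nuclear genome. These copies are unprocessed pseudogenes on the minus strand of chromosome 1, and 7 of them are rows of the same table. A copy was called near-identical when at least 90% of it aligned at 99% identity or more. Gm10222 (chr1:24612407-24612700) matched mt-Nd4l over all its 294 bases, and Gm10925 (chr1:24613974-24614651) matched mt-Atp6 over all its 678 bases. Gm28439 (chr1:24611535-24612410) matched mt-Nd4 over 876 bases and was at 0 in all 58 libraries. No near-identical row was found for mt-Nd1, mt-Nd2, mt-Nd5, mt-Nd6 or mt-Cytb. The other copies of members differed by 1 base each, over 345 aligned bases for mt-Nd3 and over 483 of the copy's 492 bases for mt-Co1. Gm28438 (chr1:24612775-24613119) carried the substitution T3C against mt-Nd3, and Gm29216 (chr1:24615706-24616197) carried A1066T against mt-Co1, with positions counted from 1 at the 5′ end of the mitochondrial transcript. The sequences around both, with the differing base in capitals, show how little separates each pair:
mt-Nd3: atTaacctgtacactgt
Gm28438: atCaacctgtacactgt
mt-Co1: ggaAttgttttatccaac
Gm29216: ggaTttgttttatccaac
The copies of mt-Nd4l and mt-Atp6 differed only in where their gene models stop, 3 bases before the mitochondrial ones, so the ends are shown with no base marked:
last bases of mt-Nd4l: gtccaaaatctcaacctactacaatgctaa
end of Gm10222: tacgtccaaaatctcaacctactacaatgc
end of mt-Atp6: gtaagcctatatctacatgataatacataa
end of Gm10925: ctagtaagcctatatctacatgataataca
Values of mt-Nd3, mt-Nd4l, mt-Co1 and mt-Atp6 are therefore uncertain, and differences with the reads of their copies added are given beside the results that turn on these genes.

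Per kilobase of transcript, mt-Co1, the catalytic subunit of complex IV, had the highest mean level of the members, 519462 ± 55396 (SD over 58 libraries). It ranked first of all genes by normalised count in 58 of 58 libraries. mt-Cytb, the cytochrome b of complex III, stood at 225987 ± 23839 per kilobase. Among complex I genes the mean level per kilobase fell from mt-Nd1 (202775) through mt-Nd4 (162762), mt-Nd2 (122299), mt-Nd5 (80979), mt-Nd4l (45206) and mt-Nd3 (7396) to mt-Nd6 (2988). mt-Atp6, a proton channel subunit of complex V, stood at 76711. In this order mt-Cytb and mt-Nd1, and mt-Nd5 and mt-Atp6, were closer than the larger of their SDs. With the copy's reads added, mt-Atp6 moved to 388009 per kilobase, mt-Nd3 to 64512 and mt-Nd4l to 83519, while mt-Co1 moved to 541567. Of the summed reads of gene and copy, the copy held 88.5% for mt-Nd3, 80.2% for mt-Atp6, 45.9% for mt-Nd4l and 4.08% for mt-Co1.

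The 10 genes together took 5.59% ± 0.53 of normalised counts in HT vehicle, 6.64% ± 0.49 in HT fluoxetine and 6.40% ± 0.57 in HT lithium (SD, n = 10 each). In WT the share was 6.54% ± 0.56 under vehicle, 6.22% ± 0.48 under fluoxetine (n = 10 each) and 6.12% ± 0.86 under lithium (n = 8). HT vehicle had the lowest mean of the 6 groups for all 10 genes. The highest mean was in HT fluoxetine for 6 genes, in WT vehicle for 3 and in HT lithium for 1. Neighbouring groups in these orders differed by less than the larger SD, except in 1 step, between HT vehicle (713084 ± 65576) and WT fluoxetine (791048 ± 67649) for mt-Co1.

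**Figure D1:**
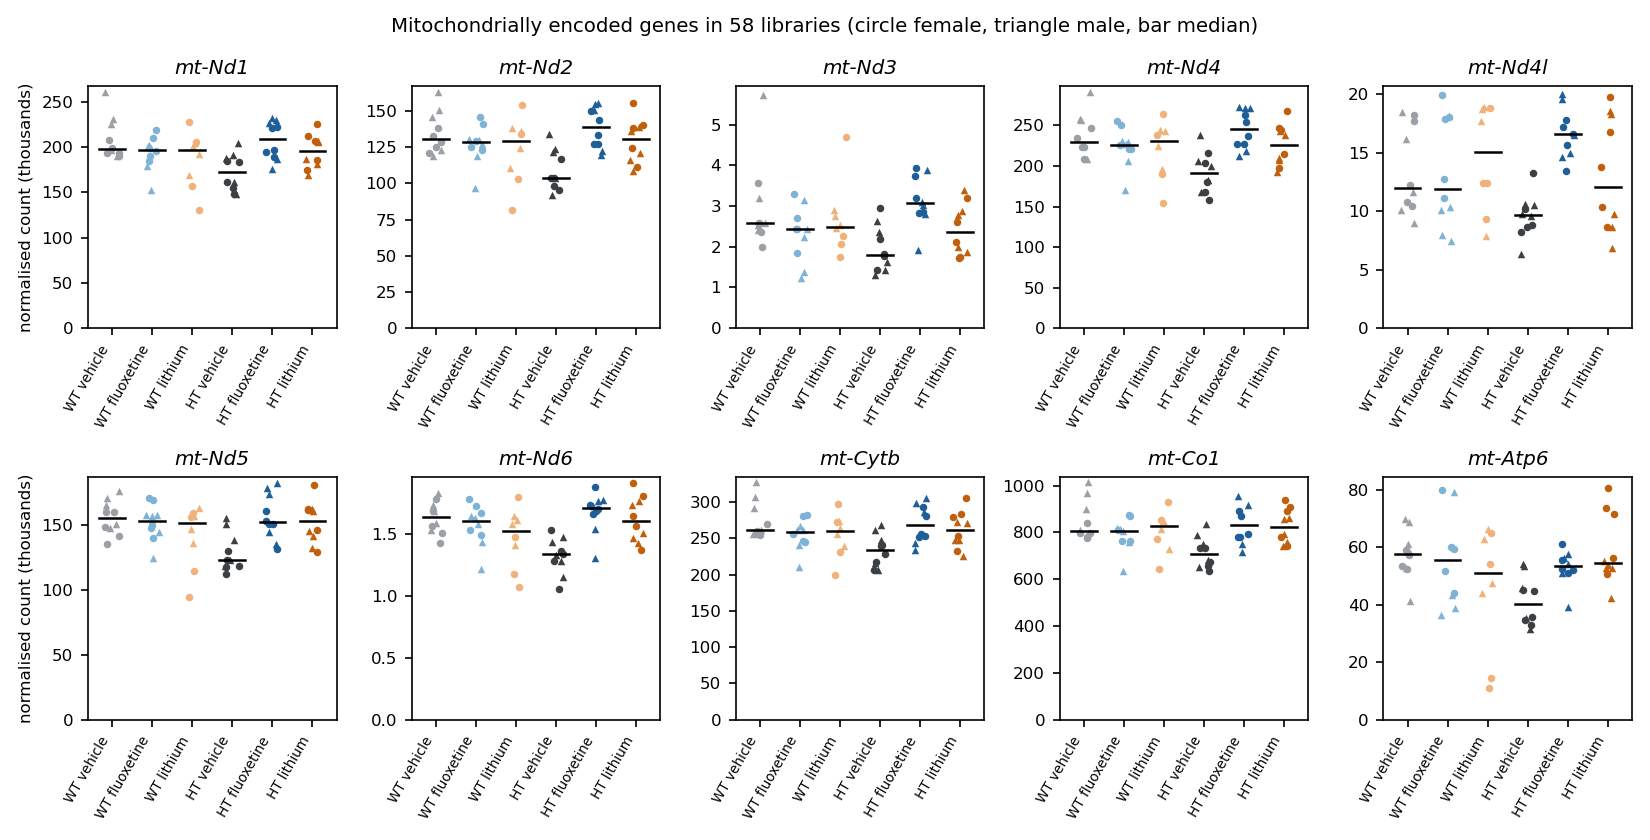
Normalised count (in units of 1000, linear axis from 0) of the 10 genes in each of 58 libraries by group, with circles for females, triangles for males and a bar at the median. For all 10 genes the HT vehicle median is the lowest of the 6, for example 705492 for mt-Co1, and for mt-Atp6 a pair of WT lithium females lies far below the rest at 14357 and 11070.

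HT and WT mice given vehicle were compared to see how the genotypes differ without a drug. All 10 genes had a lower estimate in HT, but 0 of 10 passed at an adjusted p under 0.05 by limma, against 0.048% of all genes tested. At an unadjusted p under 0.05 there were 10 of 10 members and 2035 of 16669 genes, and edgeR and DESeq2 on 54 libraries also called 0 members. The median log2 difference of the members was -0.31, beside 0.00 over all genes (0.001185).

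mt-Nd6, a complex I subunit and the only member on the minus strand, had the smallest p. Its normalised count ran from 1430 to 1826 with a median of 1635 in WT vehicle, and from 1054 to 1531 with a median of 1334 in HT vehicle. The groups overlapped, yet 7 of 10 HT libraries lay below every WT library. The log2 difference was -0.31 (SE 0.0719, limma adjusted p = 0.071), and it passed when HT vehicle female 1 (adjusted p = 0.048) or male 3 (0.0449) was left out.

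mt-Nd4, a proton-pumping subunit of complex I, ran from 208406 to 291820 (median 229485) in WT vehicle and from 157764 to 238877 (median 190976) in HT vehicle. Here 8 of 10 HT libraries lay below every WT library (log2 difference -0.31, SE 0.0811, limma adjusted p = 0.111). mt-Nd1, mt-Nd2 and mt-Nd5, further membrane subunits of the same complex, had differences of -0.28, -0.31 and -0.28. mt-Cytb stood at 255248 to 327662 (median 261361) in WT vehicle and 206891 to 268014 (median 233841) in HT vehicle, a difference of -0.23 (SE 0.0668, adjusted p = 0.152). mt-Co1 stood at 775639 to 1015163 (median 804810) and 634551 to 835581 (median 705492), a difference of -0.25 (SE 0.0745, adjusted p = 0.172). For both genes 8 of 10 HT libraries lay below every WT library.

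The largest estimates belonged to genes with a copy. mt-Nd3 differed by -0.58 (95% confidence interval -0.93 to -0.24), mt-Atp6 by -0.48 (-0.85 to -0.12) and mt-Nd4l by -0.47 (-0.83 to -0.10). With the copies' reads added these became -0.33 for mt-Nd3 (adjusted p = 0.186), -0.27 for mt-Atp6 (adjusted p = 0.196) and -0.01 for mt-Nd4l (95% confidence interval -0.25 to 0.24). All 10 differences were below 0 in females and in males, with medians of -0.31 in both. Under fluoxetine 9 of 10 genes were above 0 in HT against WT and under lithium 8 of 10. 0 members passed by limma in either, against 0.612% and 0.06% of all genes, with 2 and 1 members at an unadjusted p under 0.05 and 0 by edgeR and DESeq2. Without WT lithium females 3 and 4, the pair picked for low mt-Atp6, the lithium comparison had 2 of 10 above 0. When WT lithium female 1 alone was left out, mt-Atp6 passed there (0.80, SE 0.178, limma adjusted p = 0.0164). With all libraries its difference was 0.59 alone and 0.15 with the reads of Gm10925 added (SE 0.0918, adjusted p = 0.596).

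**Figure D2:**
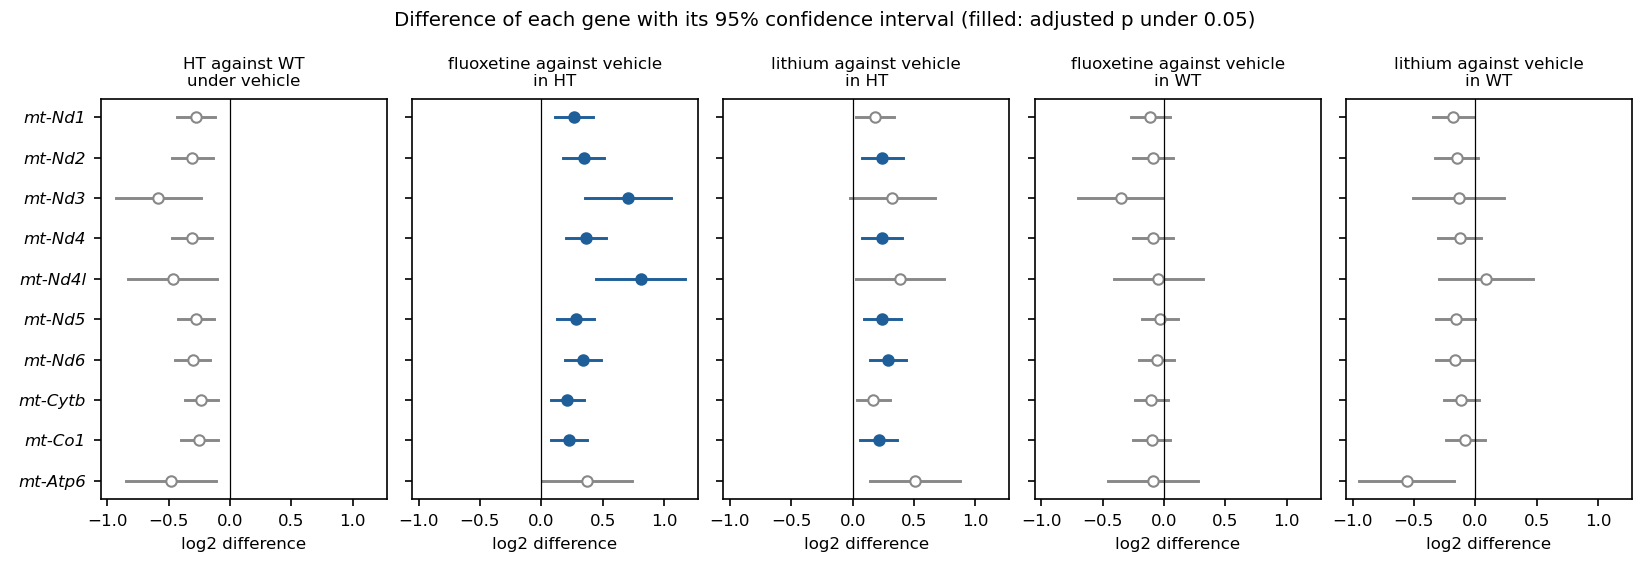
Log2 difference of normalised count + 1 (x axis) for the 10 genes (y axis) in 5 comparisons, with limma's 95% confidence intervals and filled points at an adjusted p under 0.05. In the panel of fluoxetine in HT, 9 of 10 points are filled and to the right of 0, in the panel of lithium in HT 5 of 10, and in the other panels 0.

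Fluoxetine was compared with vehicle within HT to see what the drug goes with in that genotype. It went with higher levels of 9 of the 10 genes: mt-Nd1, mt-Nd2, mt-Nd3, mt-Nd4, mt-Nd4l, mt-Nd5, mt-Nd6, mt-Cytb and mt-Co1 rose, and 0 fell. The median log2 difference of the 10 was 0.34, beside -0.00 over all genes (-0.003164). Of all 16669 genes, 6.84% were called higher and 5.96% lower, so a call was common in this comparison. On 54 libraries, with 7 of HT vehicle, limma called 4 members (mt-Nd2, mt-Nd4, mt-Nd4l and mt-Nd6), edgeR 7 and DESeq2 8. With quantile normalisation, which limits differences of the members of highest rank, 3 were called (mt-Nd3, mt-Nd4l and mt-Nd6). HT vehicle libraries are shared with the genotype comparison above, with the lithium comparison in HT and with both interactions, so these are not independent.

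mt-Nd6 ran from 1054 to 1531 (median 1334) in HT vehicle and from 1304 to 1877 (median 1710) in HT fluoxetine. The ranges overlapped, with 9 of 10 fluoxetine libraries above every vehicle library (log2 difference 0.34, SE 0.0719, limma adjusted p = 0.00153). mt-Nd4 rose from a median of 190976 to one of 245684, where the fluoxetine libraries ran from 212429 to 272981. All 10 of them lay above the vehicle median and 5 above every vehicle library (0.36, SE 0.0811, adjusted p = 0.00284).

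mt-Nd2 rose from 91686 to 134241 (median 103905) in HT vehicle to 119243 to 155125 (median 138563), a difference of 0.34 (SE 0.0824, limma adjusted p = 0.00474). mt-Nd5 stood at 111902 to 155610 (median 123097) and 131766 to 182087 (median 151849), a difference of 0.28 (SE 0.0741, adjusted p = 0.0102). mt-Nd1 stood at 148228 to 204381 (median 172177) and 175929 to 231700 (median 208657), a difference of 0.27 (SE 0.0776, adjusted p = 0.018). For these complex I genes the groups overlapped, and 4 or 5 of 10 fluoxetine libraries lay above every vehicle library.

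mt-Cytb rose by 0.21 (SE 0.0668, limma adjusted p = 0.0293), from a median of 233841 to 268706 with a range of 234471 to 305453 under fluoxetine. mt-Co1 rose by 0.23 (SE 0.0745, adjusted p = 0.0379), from a median of 705492 to 831816 with a range of 717729 to 953330. These were the smallest of the called differences and rested on single libraries. The mt-Cytb call ended, at adjusted p up to 0.0715, without HT fluoxetine female 1, male 1 or male 3, or without HT vehicle female 5 or male 1. The mt-Co1 call ended, at adjusted p up to 0.0818, without any 1 of 12 libraries: HT fluoxetine females 1, 2 and 4 and males 1, 3 and 5, and HT vehicle females 3, 4 and 5 and males 1, 2 and 4.

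mt-Atp6 did not pass: its values were 31651 to 54329 (median 40398) in HT vehicle and 39071 to 61029 (median 53385) in HT fluoxetine, which gave 0.37 on the log2 scale (SE 0.183, limma adjusted p = 0.169). All 10 estimates were above 0 in both sexes, with a median of 0.40 in females and 0.26 in males.

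mt-Nd4l, a small membrane subunit of complex I, had the largest difference of the members. It was the only member whose groups did not overlap, a feature that was not counted over all genes. It ran from 6318 to 13288 (median 9662) in HT vehicle and from 13451 to 20026 (median 16580) in HT fluoxetine (0.81, SE 0.18, limma adjusted p = 0.00258). Its copy moved the other way. Gm10222 ran from 5446 to 21084 (median 18630) in HT vehicle and from 0 to 15619 (median 3115) in HT fluoxetine, where 3 libraries held it at 0. Over all 58 libraries, 12 had a Gm10222 value under 100, and in these mt-Nd4l lay between 16555 and 19922. In the other 46 it lay between 6318 and 20026. Summed, gene and copy stood at 18733 to 31739 (median 26956) in HT vehicle and 16555 to 30568 (median 20928) in HT fluoxetine. The log2 difference of the sum was -0.33 (SE 0.123, limma adjusted p = 0.0695), the opposite sign to that of mt-Nd4l alone.

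**Figure D3:**
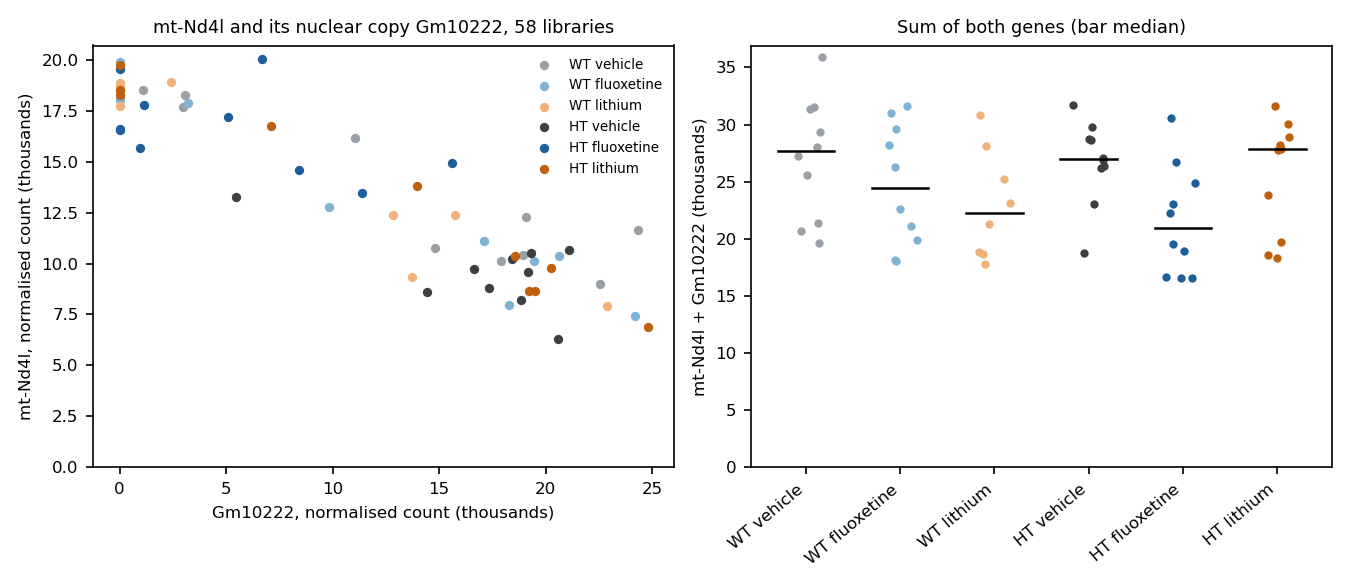
Left, normalised count (in units of 1000) of mt-Nd4l on the y axis against its nuclear copy Gm10222 on the x axis, 1 point per library coloured by group. Right, their sum by group with a bar at the median; libraries with little Gm10222 have high mt-Nd4l, and the median sum is 26956 in HT vehicle and 20928 in HT fluoxetine.

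For the remaining genes with a copy the sum kept the sign. mt-Nd3 rose from 1318 to 2947 (median 1798) in HT vehicle to 1930 to 3933 (median 3074) in HT fluoxetine, a difference of 0.71 (SE 0.173, limma adjusted p = 0.00557). With Gm28438 added the difference was 0.30 (SE 0.102, adjusted p = 0.0415). On 54 libraries mt-Nd3 alone did not pass by limma (adjusted p = 0.0761), edgeR (0.0882) or DESeq2 (0.0953). With Gm10925 added, mt-Atp6 passed (0.26, SE 0.0866, adjusted p = 0.0396). With Gm29216 added, mt-Co1 did not (0.20, SE 0.0746, adjusted p = 0.0649). In all, 8 of 10 members were called higher with copies added, beside 6.83% of genes.

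**Figure D4:**
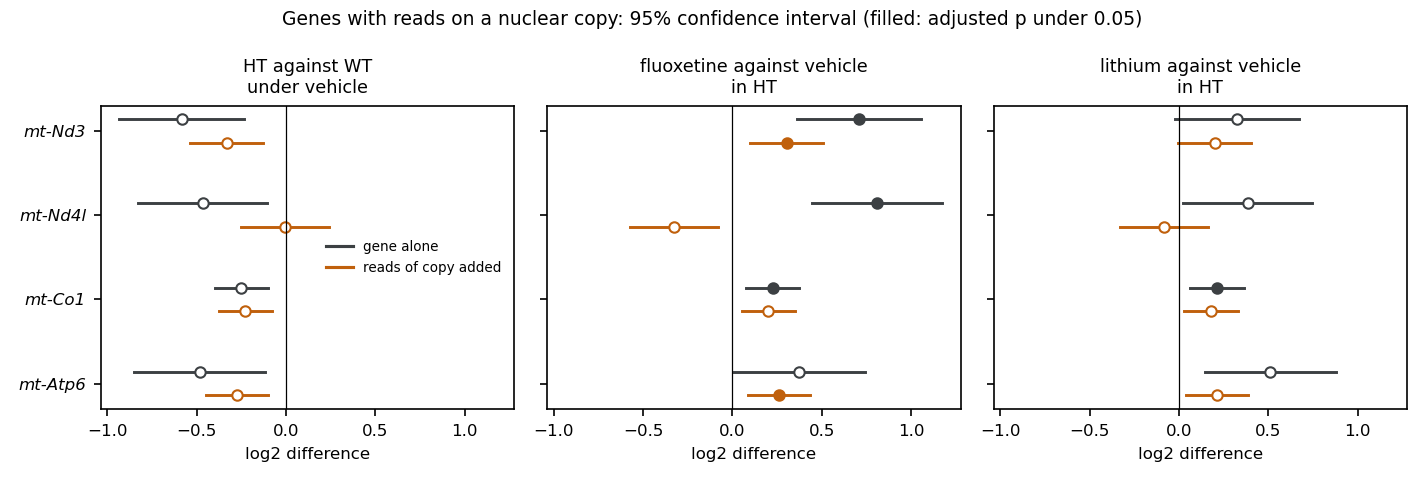
Log2 difference with its 95% confidence interval (x axis) for the 4 genes with reads on a nuclear copy, for the gene alone (dark) and with the copy's reads added (orange), in 3 comparisons. For mt-Nd4l under fluoxetine in HT the estimate is 0.81 alone and -0.33 with the copy, and for mt-Nd3 it is 0.71 and 0.30.

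Lithium was compared with vehicle within HT in the same way. All 10 estimates were above 0 and 5 genes rose: mt-Nd2, mt-Nd4, mt-Nd5, mt-Nd6 and mt-Co1, while 0 fell. The median log2 difference was 0.24, beside -0.00 over all genes (-0.001495). Of all genes, 7.46% were called higher and 6.61% lower.

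mt-Nd6 ran from 1366 to 1912 (median 1604) in HT lithium, with 6 of 10 libraries above every HT vehicle library (log2 difference 0.29, SE 0.0719, limma adjusted p = 0.00515). mt-Nd5 ran from 128790 to 180799 (median 153256), a difference of 0.24 (SE 0.0741, adjusted p = 0.0227). mt-Nd4 (192927 to 267734, median 226501), mt-Nd2 (108846 to 155570, median 130273) and mt-Co1 (739610 to 937217, median 823713) had differences of 0.24, 0.24 and 0.21, with adjusted p of 0.0388, 0.0411 and 0.0461. In each of these 4, all 10 lithium libraries lay above the HT vehicle median, and 4 or 5 lay above every HT vehicle library.

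mt-Atp6 narrowly missed (0.51, SE 0.183, limma adjusted p = 0.0511), at 42487 to 80862 (median 54510). mt-Nd1 (0.18), mt-Nd3 (0.32), mt-Nd4l (0.39) and mt-Cytb (0.17) had adjusted p between 0.0804 and 0.203. The median difference was 0.34 in females and 0.13 in males, and whether the sexes differed was not tested.

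The count in the lithium comparison rested on single libraries. It was 1 (mt-Nd6) without HT lithium female 4 or without HT vehicle male 1. It was 2 without any 1 of HT lithium females 3 and 5, HT lithium males 4 and 5, HT vehicle females 3 and 5 and HT vehicle male 2. It was 7 without HT lithium female 1 and 6 without HT lithium female 2, HT lithium male 2 or HT vehicle male 3. mt-Atp6 passed without any 1 of those 4 or without HT vehicle male 4 (adjusted p from 0.0363 to 0.0485). On 54 libraries, which hold 7 HT vehicle libraries, it was 1 by limma, 2 by edgeR and 3 by DESeq2. With the copies' reads added it was 4, beside 7.46% of genes, and the calls no longer held mt-Co1 (0.18, SE 0.0746, limma adjusted p = 0.0916). mt-Nd4l then had a difference of -0.08 (SE 0.123, adjusted p = 0.702), mt-Nd3 one of 0.20 (adjusted p = 0.18) and mt-Atp6 one of 0.22 (adjusted p = 0.0822).

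In WT the same drugs went with no call among the members. Under fluoxetine all 10 estimates were below 0 (median log2 difference -0.09) and 0 passed by limma, against 7.39% of all genes in either direction, with 1 member at an unadjusted p under 0.05 (mt-Nd3, -0.35). 9 of 10 were above 0 in females (median 0.04) and 0 of 10 in males (median -0.22), and that difference between sexes was not tested. Under lithium 9 of 10 were below 0 (median -0.14) and 0 passed, against 3.34% of all genes, with 4 members at an unadjusted p under 0.05. edgeR and DESeq2 on 54 libraries called 0 members in both comparisons. mt-Atp6 ran from 11070 to 66342 (median 50978) in WT lithium and from 41374 to 69943 (median 57672) in WT vehicle, a difference of -0.56 (SE 0.194, limma adjusted p = 0.103). It passed without WT lithium female 1 (-0.77, adjusted p = 0.00598) or female 2 (-0.72, adjusted p = 0.0169). Without females 3 and 4, picked for their low mt-Atp6, it was 0.00 (-0.0003025), which follows from that choice. The median of the 10 members was then also 0.00 (0.001579), and the members vary together from library to library. With the reads of Gm10925 added and all libraries, the mt-Atp6 difference was -0.20 (SE 0.0918, adjusted p = 0.248). The difference of mt-Nd3 under fluoxetine in WT was -0.19 with Gm28438 added (SE 0.102, adjusted p = 0.238).

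Whether a drug difference depended on the genotype label was tested by interaction. For fluoxetine all 10 estimates were above 0 (median 0.42) and 0 passed by limma, against 0.042% of all genes, with 9 members at an unadjusted p under 0.05. mt-Nd3 came nearest (1.06, SE 0.245, adjusted p = 0.0895), then mt-Nd6 at 0.40 (adjusted p = 0.104), then mt-Nd4 at 0.45 (adjusted p = 0.108). With Gm28438 added the mt-Nd3 estimate was 0.50 (SE 0.144, adjusted p = 0.18), and the lowest adjusted p of the 10 was 0.107. mt-Nd3 passed without HT vehicle female 1 (adjusted p = 0.0484), HT fluoxetine male 2 (0.049) or WT fluoxetine male 3 (0.0382). Without HT fluoxetine male 4, mt-Nd3 (0.0486), mt-Nd4 (0.0486) and mt-Nd6 (0.0443) passed.

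For lithium all 10 were again above 0 (median 0.38) and 0 passed by limma, against 0% of all genes, with 8 members at an unadjusted p under 0.05. mt-Nd6 (0.45, SE 0.105) and mt-Atp6 (1.07, SE 0.266) had an adjusted p of 0.168. With Gm10925 added the mt-Atp6 estimate was 0.42 (SE 0.126, adjusted p = 0.196). Without copies added, both passed without WT lithium female 1 (0.0446 and 0.0186), and both with mt-Nd5 (0.0434) without female 2 (0.0233 and 0.0296). Without females 3 and 4 the median of the 10 members was 0.23 and the lowest adjusted p 0.906. That pair was picked for low mt-Atp6, so this fit is no independent check. edgeR and DESeq2 on 54 libraries called 0 members in both interactions. Between females and males 0 members passed by limma, against 0.132% of all genes, with 0 at an unadjusted p under 0.05 and 0 by edgeR and DESeq2. Of the 10 estimates 3 were above 0 with all libraries and 9 without WT lithium females 3 and 4. Without that pair 0 members passed by limma, where 23 of 16669 genes did, and 0 were at an unadjusted p under 0.05.

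Nuclear encoded subunits of the same complexes had mostly lower estimates under either drug in HT, where those of the members were higher. Ndufa4, listed under complexes I and IV, was counted once. Under fluoxetine in HT, 74 of 79 nuclear subunits of complexes I to V were below 0 (median log2 difference -0.09). Of the 79, 19 fell and 0 rose, where 5.96% of all genes were called lower and 6.84% higher. Complex I had 11 of 38 called lower, such as Ndufa13 (-0.29, SE 0.0624, limma adjusted p = 0.002), Ndufa6 (-0.19), Ndufa11 (-0.17) and Ndufv3 (-0.17). Of complex V 4 of 17 fell, such as Atp5o (-0.14) and Atp5k (-0.33), of complex III 2 of 9 (Uqcrc1, -0.10, and Uqcrq, -0.18), of complex IV 1 of 12 (Cox5b, -0.16) and of complex II, which has no mitochondrially encoded subunit, 1 of 4 (Sdhb, -0.14). In WT, fluoxetine also had 76 of 79 nuclear subunits below 0 (median -0.10), and 5 fell, where 3.41% of all genes were called lower. Lithium in WT had 51 of 79 above 0 (median 0.02) and 0 passed by limma, with 2 at an unadjusted p under 0.05.

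Under lithium in HT 66 of 79 were below 0 (median -0.05), 8 fell and 1 rose (Usmg5, 0.15). Of all genes 6.61% were called lower there and 7.46% higher. Ndufv3 (-0.21, SE 0.0506, limma adjusted p = 0.00343) and Ndufa13 (-0.22) were among those that fell. In HT against WT under vehicle 36 of 79 were below 0 (median 0.01) and 0 passed by limma, with 1 at an unadjusted p under 0.05.

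**Figure D5:**
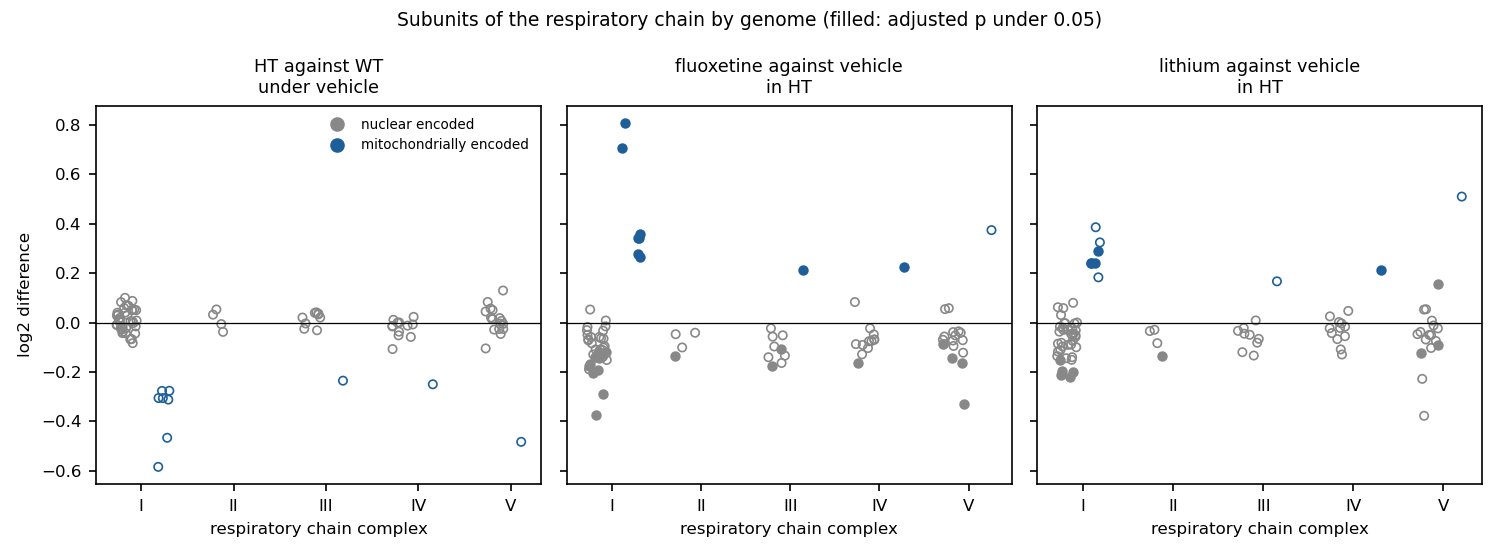
Log2 difference (y axis) of each subunit of respiratory complexes I to V (x axis) in 3 comparisons, nuclear encoded in grey and mitochondrially encoded in blue, filled at an adjusted p under 0.05. Under fluoxetine in HT the median is -0.09 over 79 nuclear subunits and 0.34 over the 10 mitochondrially encoded ones; Ndufa4 is drawn under both I and IV.

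Nuclear genes for mitochondrial RNA, ribosomes, biogenesis, import and stress were read as 6 lists with 159 tested entries. Hspd1 and Hspe1 stand in both the import and the stress list and were counted in each. Under fluoxetine in HT 5 rose and 15 fell, where 6.84% of all genes were called higher and 5.96% lower. Under lithium in HT 8 rose and 9 fell, where the shares of all genes were 7.46% and 6.61%. Of 18 genes of mitochondrial transcription and DNA maintenance, 2 rose under fluoxetine in HT, the termination factor paralogs Mterf1a (0.39, SE 0.101, limma adjusted p = 0.00808) and Mterf1b (0.54, SE 0.141, adjusted p = 0.00843), whose reads may be split between near-identical copies. Under lithium in HT 1 fell, the mitochondrial topoisomerase Top1mt (-0.37, SE 0.0617, adjusted p = 6.72e-05). The medians of this list were 0.04 and 0.01.

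Of 22 measured genes of mitochondrial RNA processing, stability and decay, Pnpt1, a polynucleotide phosphorylase, rose under fluoxetine (0.18) and under lithium (0.14) in HT. Ptcd1 fell under fluoxetine (-0.15), and Fastkd2 (0.18) and Ptcd3 (0.11) rose under lithium, the other members of the list not passing. Of 78 mitochondrial ribosomal proteins 1 rose and 8 fell under fluoxetine in HT (median -0.06), and 3 rose and 6 fell under lithium (median -0.04).

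Among 12 regulators of mitochondrial biogenesis, Gabpa rose (0.19) and Pprc1 (-0.21) and Esrra (-0.12) fell under fluoxetine in HT, and Creb1 rose under lithium (0.16). Of 18 genes of mitochondrial mass and import 3 fell under fluoxetine (Tomm40, -0.15, Phb, -0.12, and Phb2, -0.11). Under lithium 1 rose (Tomm70a, 0.12) and 1 fell (Vdac1, -0.10). Of 11 tested genes of the mitochondrial unfolded protein response, 1 fell under fluoxetine (Clpp, -0.13) and 1 under lithium (Atf5, -0.26). In HT against WT under vehicle 0 of the 159 tested entries of these 6 lists passed by limma, with 15 at an unadjusted p under 0.05.

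Markers of cell types and RNA fraction also moved in these comparisons, and their part in the results was not tested. Of all genes 6.84% rose and 5.96% fell under fluoxetine in HT, and 7.46% rose and 6.61% fell under lithium in HT. Under fluoxetine in HT 4 of 7 oligodendrocyte markers rose (median 0.46), and the summed level ran from 55738 to 118830 in HT vehicle and from 73127 to 168529 in HT fluoxetine. Of 5 RNAs retained in the nucleus (Malat1 and others), 3 rose, the sum running from 169320 to 228612 and from 186792 to 275732. Microglia markers rose in 2 of 6, with sums of 6502 to 8011 and 6759 to 8691. Under lithium 0 of 7 oligodendrocyte markers passed by limma (2 at an unadjusted p under 0.05), with sums of 69000 to 100690, and 2 of 5 nuclear RNAs rose, with sums of 201712 to 249867. Of 6 olfactory bulb markers 0 passed by limma in each comparison (1, 2 and 0 at an unadjusted p under 0.05 in the order that follows), and their median was 1.42 in HT against WT under vehicle, -1.38 under fluoxetine in HT and -1.14 under lithium in HT. Their sum ran from 288.8 to 6028 in WT vehicle, from 1573 to 8291 in HT vehicle, from 269.2 to 12641 in HT fluoxetine and from 238.6 to 6498 in HT lithium. Of 6 endothelial and mural markers 1 rose under fluoxetine and 3 fell under lithium, and 1 of 6 astrocyte markers rose under fluoxetine. No marker of these lists was at 0 in all libraries. Recovered reads were 24.2 M to 34.0 M in 7 HT vehicle libraries, 23.9 M to 33.8 M in 10 of HT fluoxetine and 23.5 M to 28.3 M in 9 of HT lithium, and were not obtained for the other 4.

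The members varied together from library to library. Over 58 libraries the correlation of log2 values between pairs of the 7 genes with little or no read sharing (mt-Nd1, mt-Nd2, mt-Nd4, mt-Nd5, mt-Nd6, mt-Cytb and mt-Co1) had a median of 0.93 and a lowest value of 0.83. After the group means were removed the median was 0.92. mt-Nd6, on the other strand, had a median correlation of 0.86 with the other members. mt-Nd3 (0.49), mt-Nd4l (0.65) and mt-Atp6 (0.70) followed the rest less closely. These pairs share libraries, scaling and the mitochondrial genome, and the values are a description.

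Among 16654 tested genes outside the mitochondrial genome, 11 had a correlation above 0.8 with the mean log2 level of the members and 1 had one below -0.8. The near-identical copies on chromosome 1 were not taken out of these genes. Above Sh3glb1 stood 5 predicted or noncoding genes that are not named, and the highest value of all was 0.89. The named genes with the highest values over 58 libraries were Smim10l1 (Pearson 0.84, Spearman 0.82), Tmed5, a cargo receptor of the early secretory pathway (0.83), Pcmtd1 (0.82), Luzp2 (0.82), Pcnp (0.81) and Sh3glb1, endophilin B1 (0.81). Those with the lowest were Ttyh3 (Pearson -0.81, Spearman -0.73), the matrix metalloproteinase Mmp24 (-0.80), the corepressor Trim28 (-0.79), the histone demethylases Kdm4b (-0.79) and Kdm4a (-0.78), and Dpysl4 (-0.78). Without the 2 libraries farthest from the median, Smim10l1 stood at 0.81 and Ttyh3 at -0.76, and within groups at 0.84 and -0.77. All points share library and depth, and no test was made.

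The mitochondrially encoded genes outside the 10 gave a mixed picture. mt-Rnr2, the large ribosomal RNA, rose under fluoxetine in HT (0.22, SE 0.0753, limma adjusted p = 0.0433), and mt-Rnr1 (0.20, adjusted p = 0.0582) and mt-Atp8 (0.19, adjusted p = 0.103) did not pass. mt-Co2 (0.15) and mt-Co3 (0.34), whose reads are shared with Gm28661 and Gm28437, had SEs of 0.231 and 0.224. mt-Co2 ran from 32682 to 129783 in HT vehicle and from 32168 to 105293 in HT fluoxetine.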

How the data were processed

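Libraries were made with a stranded mRNA kit, per the labels. The submitters' processing notes name Salmon 0.11.2, R 3.6.0, DESeq2 1.19.11 and GRCm38; the annotation release is not given in the sources used here. The authors deposited 1 table of normalised signal per gene and library. In 54 of 58 libraries the values up to 1000 reads were whole multiples of 1 step (within 0.01, in 100% of these values). Division by this step and rounding gave the reads, while in 4 the step was too close to 1. Values above 1000 reads, which include most of those of the members, were not checked for being whole multiples. Of 18088 IDs, 18077 had a symbol in GENCODE M21.

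The planned test for normalised values was used. The test used log2(value + 1), which understates folds of low genes. Genes with a mean of at least 10 (16669) were fitted with limma 3.58.1 (R 4.3.3) over 58 libraries, with 1 coefficient per group of genotype, treatment and sex and a trend of variance on mean. Comparisons averaged the sexes, p was adjusted over every gene tested (Benjamini-Hochberg), and rose or fell means an adjusted p under 0.05. Alternatives were edgeR 4.0.16 and DESeq2 1.42.0 on recovered reads, other scalings, filters and pseudocounts, a replicate block and leaving out each library. Chosen after seeing the data were limma on 54 libraries, adding the reads of copies (found with blastn 2.17.0) and leaving out WT lithium females 3 and 4.

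The members and gene lists were chosen with earlier results of these data known. Up to 4 genes of a list, those of smallest p, could be named. The 6 genes most and least like the members by correlation were named, and predicted genes were only counted. Of the steps, only the limma fit was tested on simulated data.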

Additional observations from a re-analysis of the deposited data

Results flagged for a closer look

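In 4 of 60 combinations of gene and group, 1 library lay far from the others by Dixon's criterion, which chance alone meets in about 1 of 20 groups. mt-Nd3 was 5728 in WT vehicle male 2, where the next highest library of the group had 3573, and 4702 in WT lithium female 2, where the next had 2895. mt-Co1 was 635777 in WT fluoxetine male 1, below the next lowest at 760040. mt-Atp6 was 39071 in HT fluoxetine male 2, below the next lowest at 51159.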

How the results depend on the processing

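The calls under fluoxetine in HT numbered 9 with the replicate number as a block, 3 with quantile normalisation and 4 by limma on 54 libraries, which hold 7 of 10 HT vehicle libraries. Those under lithium in HT numbered 3 with the replicate block, 1 with quantile normalisation, and, on 54 libraries, 1 by limma, 2 by edgeR and 3 by DESeq2. Over all alternatives other than leaving out 1 library, calls of single members under fluoxetine in HT held in 98 cases. They were lost in 16 and turned sign in 3. Under lithium in HT calls held in 46 cases and were lost in 19. Some of the lost calls fall in settings for which no count is given here. Quantile normalisation gives the gene of highest rank 1 value in every library, so it removes any difference of mt-Co1, first in 58 libraries, and pins mt-Cytb, which ranked second in 55. It also limits mt-Nd4 (ranks 3 to 6), mt-Nd1 (4 to 7), mt-Nd5 (7 to 11) and mt-Nd2 (9 to 14). The genes called under it ranked lower: mt-Nd4l (130 to 832), mt-Nd3 (933 to 5111) and mt-Nd6 (3511 to 5647). Under it mt-Nd1 turned to 0.0237 in HT against WT under vehicle, and mt-Nd1 (-0.051) and mt-Cytb (-0.0164) turned under fluoxetine in HT. With the copies' reads added, mt-Nd4l turned to -0.326 there. Leaving out 1 library gave 7 to 9 calls under fluoxetine in HT, 1 to 7 under lithium in HT, 0 to 1 in HT against WT under vehicle, the same under lithium, 0 to 1 for lithium in WT, and 0 to 3 in each interaction. The other comparisons stayed at 0 calls under the alternatives run. Same-numbered libraries did not deviate together by the median (-0.00702 over 309 pairs, against 0.00364 for other pairs). Single pairs ran from -0.469 to 0.42, and 68 had a correlation over 0.1, a share not counted for other pairs. These values do not settle whether some groups were paired. The block changed no other count of members called. Counts over all genes moved more. HT against WT had 8 genes called under vehicle (2 with the replicate block, 2 to 25 with 1 library left out, 0 to 12 in the other settings). The count was 102 under fluoxetine (11 to 172, 7 to 162) and 10 under lithium (3 with the block, 2 to 211, 2 to 23), in the same order of ranges. Over the 3 treatments it was 78 (65 to 122, 42 to 148). Fluoxetine had 1232 in WT (668 to 1629, 918 to 1306) and 2134 in HT (1353 to 2276, 789 to 2161). Lithium had 556 in WT (272 to 771, 212 to 660) and 2345 in HT (1644 to 2691, 1061 to 3049). The interactions had 7 for fluoxetine (1 to 46, 0 to 17) and 0 for lithium (0 to 37, 0 to 1), and the sexes 22 (18 to 33, 17 to 29). The percentages given as background move with these counts. No scaling moved the median of all genes by over 0.1, the most being 0.0259. With 10 libraries a group, the SE of a difference was between 0.0668 (mt-Cytb) and 0.183 (mt-Atp6) in the comparisons within HT, which limits what could be detected.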
